A study of Mus musculus with 2 samples.

Results

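The semaphorin, ephrin, netrin and Slit guidance genes were taken from the deposited table by symbol. They are the genes of the semaphorin classes 3 to 7, the plexins, the ephrins and Eph receptors, Slit, Robo, the netrins, and all symbols that begin with Unc5, and they numbered 59 of 14678 genes. The name rule takes in Unc50, a protein of the Golgi, and Unc5cl, which is related to the Unc5 family but is not a netrin receptor. At gestation day 2.5 (G2.5), RNA from uteri pooled by 3 was measured in 1 Dox+ and 1 Dox- library. Mice of both groups were double transgenic littermates (VEGFtetO/tetO/beta-AKtg/wt) aged 9 to 10 weeks that carry tet operators in the VEGF promoter and a tetR-Krab repressor driven everywhere by the beta-actin promoter. Dox+ mice stayed on doxycycline chow and are labelled VEGF-normal (wild type), although they carry the same alleles. Dox- mice had doxycycline removed at 3 to 4 weeks of age and are labelled VEGF-repression, so that diet and VEGF level differ together. The libraries held 5985925 and 5844314 clean tags, of which 74.1% and 72.2% were counted to genes. Vegfa, the repressed gene, had 247 copies in Dox+ and 125 in Dox-, 1.93-fold lower (95% interval 1.55 to 2.41).

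Guidance cues were first known for steering growing axons, and the same proteins steer endothelial, epithelial and stromal cells. Semaphorins bind plexins, and most class 3 semaphorins are secreted and need a neuropilin, Nrp1 or Nrp2, as a co-receptor, which is also a receptor of VEGF. Ephrins and Eph receptors are both held at the cell surface and signal into both cells that touch. Netrins bind Dcc, neogenin and Unc5 receptors, and Slits bind Robo receptors.

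A copy is a sequence tag counted to a gene. Sense and antisense tags were both collected, and whether the deposited copies hold sense tags alone is not given in the sources used here. Fold changes are ratios of the share of clean tags, with an exact Clopper-Pearson interval at 95% that covers counting error only. A gene was called when it reached 200 copies over both libraries, its FDR by the Audic-Claverie test was below 0.05 and its fold change was at least 1.5. As each condition had 1 library, the call compares these libraries and not the conditions, and no P-value is given. Since whole uteri were sampled, fewer cells of a type and less RNA per cell cannot be told apart.

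Of the 59 guidance genes, 20 reached 200 copies over both libraries. Among these 20 genes, 3 were called higher in Dox- (Sema3a, Ntn1 and Sema3f) and 5 were called lower (Sema5a, Plxnb1, Ephb2, Efna4 and Plxnd1). Over all 6547 genes with enough copies 15.2% were called higher and 14.7% lower. The 20 genes had a median log2 ratio of 0.029, Dox- over Dox+, with 10 above and 10 below 0, and all 6547 genes had a median of 0.035. The sign of the median of the 20 genes was not stable to the scaling. The 3 genes called higher encode secreted ligands. Those called lower were 3 receptors, Plxnb1, Plxnd1 and Ephb2, and 2 ligands held at the membrane, Sema5a and Efna4. Sema3c, also secreted, was not called. The split did not hold among genes called only without the copy number threshold. There the secreted Ntn3 and Sema3b were lower and Slit2 higher. The receptors Ephb3 and Plxna4 were higher there, and Epha4, Epha8 and Plxna2 lower. Of the other 12 genes, Efnb1 and Robo1 were closest to a log2 ratio of 0, and Sema4d and Plxna1 were closest below the fold threshold.

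**Figure D1:**
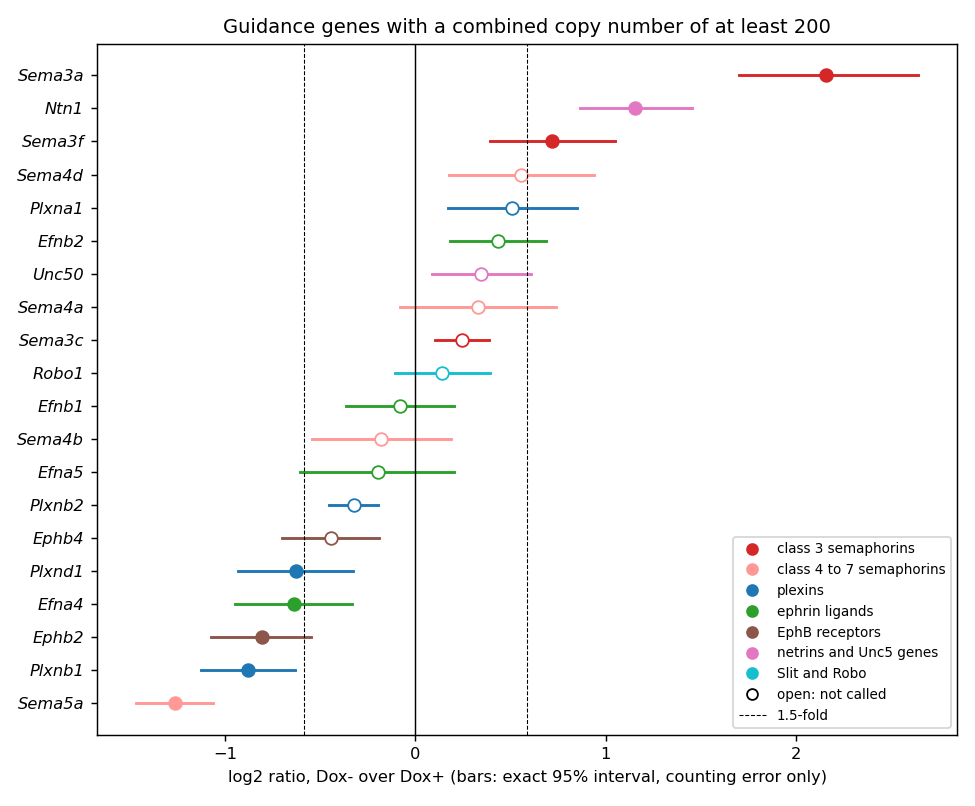
The log2 ratio, Dox- over Dox+, of the 20 guidance genes that reached 200 copies over both libraries. Points are single-library ratios, bars are exact 95% counting intervals, filled points were called and dashed lines mark 1.5-fold. Sema3a stands at 2.16 and Sema5a at -1.26, at the ends of the order.

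Promoters were drawn from RefSeq for the 4 called genes with the largest fold change among those that matched. Of these only Sema3a was higher in Dox-, so the windows give no comparison by direction. Each sequence runs from 250 bases before to 50 bases after the annotated start on build GRCm38.p6, 5′ to 3′ on the strand of the gene, and capitals mark the GC box GGGCGG on either strand. Only the first listed start of a gene was taken, so any other start of these genes is not shown. The Sema3a locus begins at 13125593 on NCBIM37, another build, and whether its window marks an internal start was not resolved.
Sema3a (chr5:13396534-13396833, plus strand): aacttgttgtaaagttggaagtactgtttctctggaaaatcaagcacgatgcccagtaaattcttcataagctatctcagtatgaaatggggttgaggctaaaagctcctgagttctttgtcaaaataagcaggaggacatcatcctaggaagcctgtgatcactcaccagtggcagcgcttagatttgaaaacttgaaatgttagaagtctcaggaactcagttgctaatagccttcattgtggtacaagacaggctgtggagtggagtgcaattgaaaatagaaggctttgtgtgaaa
Sema5a (chr15:32244563-32244862, plus strand): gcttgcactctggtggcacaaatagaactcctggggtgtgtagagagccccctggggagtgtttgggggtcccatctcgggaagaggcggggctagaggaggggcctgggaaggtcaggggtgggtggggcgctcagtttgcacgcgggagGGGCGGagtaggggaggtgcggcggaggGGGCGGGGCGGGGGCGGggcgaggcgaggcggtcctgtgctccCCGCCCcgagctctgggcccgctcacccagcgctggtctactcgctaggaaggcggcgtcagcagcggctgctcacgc
Plxnb1 (chr9:109095186-109095485, plus strand): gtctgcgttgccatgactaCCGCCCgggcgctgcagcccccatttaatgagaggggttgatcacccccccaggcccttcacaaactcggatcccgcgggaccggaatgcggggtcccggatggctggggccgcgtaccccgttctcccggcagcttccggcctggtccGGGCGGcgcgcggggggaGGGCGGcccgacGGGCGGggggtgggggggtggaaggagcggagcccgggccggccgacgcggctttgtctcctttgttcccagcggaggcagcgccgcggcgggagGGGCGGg
Ephb2 (chr4:136835963-136836262, minus strand): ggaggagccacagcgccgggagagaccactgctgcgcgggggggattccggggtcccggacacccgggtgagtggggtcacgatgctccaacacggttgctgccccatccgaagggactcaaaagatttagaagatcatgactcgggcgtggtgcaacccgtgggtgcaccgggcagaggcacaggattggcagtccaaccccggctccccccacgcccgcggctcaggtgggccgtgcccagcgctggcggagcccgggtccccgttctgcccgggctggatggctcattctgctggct

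The Sema3a window had 41.3% GC, 2 CpG and no GC box, while the Sema5a and Plxnb1 windows had 71.3% and 74.7% GC and 5 GC boxes each, where overlapping matches were counted apart. Ephb2 had 68.7% GC and no GC box. Of 52 guidance genes that matched, 40 (76.9%) had a GC box in at least 1 window of this length, and 59.5% of the 13228 promoters of genes in the table had one. The hypoxia response core ACGTG on either strand was in none of the 6 called genes that matched, in 23.1% of the guidance genes and in 24.3% of the promoters of genes in the table. Guidance genes were counted by gene over 67 promoters, and genes of the table by promoter. A gene with several promoters had more chances of a match, so these shares are not in like units. A match of letters is not a binding site. Ntn1 and Sema3f were not matched.

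Class 3 semaphorins were higher in Dox- as a sum, at 1039 copies in Dox+ and 1384 in Dox-, a ratio of 1.36 (95% interval 1.26 to 1.48). Sema3a, a secreted repellent that binds Nrp1 with plexin-A receptors (NCBIM37 chromosome 5, 13125593 to 13602565, plus strand), had 48 copies in Dox+ and rose to 209 in Dox-. This was 8.02 against 35.8 copies per 1000000 clean tags (TPM), a fold change of 4.46 (3.25 to 6.24), the largest of the 20 genes. Sema3f, which binds Nrp2 (chromosome 9, 107583833 to 107612806, minus strand), rose from 127 to 204 copies, 1.64-fold (1.31 to 2.07). Sema3c, a ligand for Nrp1 and Nrp2 and for plexin-D1, had 758 copies in Dox+ and 875 in Dox-, 1.18-fold (1.07 to 1.30), under the threshold. It held 73.0% of the class 3 copies in Dox+ and 63.2% in Dox-. Without Sema3a the summed ratio of the class was 1.21 (1.11 to 1.32).

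The remaining class 3 genes had few copies. Sema3b had 68 and 41 copies, Sema3d 12 and 26, Sema3e 22 and 23, and Sema3g 4 and 6. The co-receptors did not pass the call. Nrp1 had 324 copies in Dox+ and 398 in Dox-, 1.26-fold (1.08 to 1.46), and Nrp2 had 50 and 67, with an interval of 0.937 to 2.02.

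Semaphorins of classes 4 to 7, which are held at the membrane, went the other way as a sum, from 1384 copies in Dox+ to 996 in Dox-, and 1 gene carried this difference. Sema5a (chromosome 15, 32174568 to 32626096, plus strand), a semaphorin with thrombospondin repeats, fell from 701 to 285 copies, or from 117 to 48.8 TPM, 2.40-fold (2.09 to 2.77). The 12 genes without Sema5a summed to 683 copies in Dox+ and 711 in Dox-, a ratio of 1.07 (0.959 to 1.19), so that the direction of the sum turned. Plexin-B3, its receptor, was counted 2 times in the Dox+ library and 0 times in the Dox- library, which allows up to 0.513 TPM there.

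Class 4 semaphorins were detected in both libraries, and none was called. Sema4b had 138 and 119 copies and Sema4a 93 and 114. Sema4d, a ligand of plexin-B1 known from T cells, had 99 copies in Dox+ and 142 in Dox-, 1.47-fold (1.13 to 1.92). Sema4c, a ligand of plexin-B2, had 87 and 66 copies. Sema4g had 13 and 25, and Sema4f 5 and 2. The class 6 genes Sema6a, Sema6b, Sema6c and Sema6d ranged from 22 to 67 copies in Dox+ and from 19 to 89 in Dox-, and their sums were 153 and 197. Sema5b had 9 and 11 copies. Sema7a, which is anchored by a lipid and binds plexin-C1 and integrins, had 86 copies in Dox+ and 35 in Dox-, below the copy number threshold.

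Plexins, the receptors of semaphorins, held 2126 copies in Dox+ and 1630 in Dox-, a ratio of 0.785 (0.736 to 0.838). Plxnb1 (chromosome 9, 108997950 to 109022425, plus strand), the receptor of Sema4d, fell from 397 to 211 copies, 1.84-fold (1.55 to 2.18). Plxnd1 (chromosome 6, 115904829 to 115945023, minus strand), the receptor of Sema3e and known from endothelial cells, fell from 239 to 151 copies, 1.55-fold (1.26 to 1.91). Plxnb2 had 1126 copies in Dox+ and 878 in Dox-, the most of any guidance gene, and its fold of 1.25 (1.15 to 1.37) did not reach the threshold. The lower sum did not rest on Plxnb2, as the other 8 plexins summed to 1000 and 752 copies. It was not shared across these 8, where the called falls were those of Plxnb1 and Plxnd1. The plexin-A genes summed to 339 and 366 copies, and Plxnc1 had 23 and 24.

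The plexin-A genes, which serve class 3 and class 6 semaphorins, differed among themselves while their sums, 339 and 366, were close. Plxna1 had 126 and 175 copies, 1.42-fold higher in Dox- (1.12 to 1.80), and Plxna3 had 99 and 97. Plxna2 went from 87 to 30 copies and Plxna4 from 27 to 64, with intervals of the fold change from 1.85 to 4.44 and from 1.53 to 3.96 in opposite directions, both under the copy number threshold. Plxnc1 had 23 and 24 copies.

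Ephrin ligands summed to 1042 copies in Dox+ and 880 in Dox-, a ratio of 0.865 (0.790 to 0.947). Efna4, a lipid-anchored ligand of EphA receptors (chromosome 3, 89137312 to 89141950, minus strand), fell from 233 to 146 copies, 1.56-fold (1.26 to 1.93). Efnb2, the transmembrane ligand that marks arterial endothelium, had 232 and 306 copies, 1.35-fold higher in Dox- (1.14 to 1.61) and not called. Efnb1 had 218 and 201 copies and Efna5 114 and 97, and their intervals included 1. Efnb3 had 140 copies in Dox+ and 30 in Dox-, a 4.56-fold difference (3.05 to 7.0) as large as that of Sema3a, but its combined 170 copies were below the threshold. Without Efnb3 the ephrins summed to 902 and 850 copies. Efna1 had 40 and 47 copies, and Efna2 65 and 53.

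Among the Eph receptors, which are receptor tyrosine kinases, the B class had more members with enough copies. Ephb2 (chromosome 4, 136203454 to 136391903, minus strand) fell from 339 to 189 copies, 1.75-fold (1.46 to 2.10). Ephb4, the partner of Efnb2 in veins, had 311 and 223 copies, a fold of 1.36 (1.14 to 1.62) that was not called. The Ephb4 locus overlaps Zan, another gene of the table. Ephb3 went the other way, with 61 copies in Dox+ and 133 in Dox-, 2.23-fold (1.64 to 3.08), and its combined 194 copies lay just under the threshold. Ephb6, which lacks kinase activity, had 45 and 46 copies, and Ephb1 9 and 4.

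No EphA receptor reached a combined copy number of 200. These 7 genes summed to 203 copies in Dox+ and 123 in Dox-, a ratio of 0.621 (0.492 to 0.780). Epha4, which binds ephrins of both classes, had 78 and 26 copies, with a fold interval of 1.86 to 4.76, and without it the others summed to 125 and 97. Epha2 had 42 and 48 copies, Epha1 55 and 33, and Epha7 19 and 14. Epha8 was counted 7 times in Dox+ and 0 times in Dox-, at least 2.28-fold lower against a floor of 3 copies. Epha5 and Epha10 had 2 copies in a single library each, too few for a ratio. The Epha1 locus overlaps Zyx.

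Netrin-1 rose. Ntn1, the secreted ligand of Dcc, neogenin and Unc5 receptors (chromosome 11, 68022866 to 68214325, minus strand), had 143 copies in Dox+ and 311 in Dox-, or 23.9 and 53.2 TPM, 2.23-fold (1.82 to 2.73). Ntn3 had 87 and 35 copies and overlaps Tbc1d24, and Ntn4 was counted 3 times in Dox+ and 0 times in Dox-, which is too few for a ratio. Ntn1 thus held 61.4% of the netrin copies in Dox+ and 89.9% in Dox-. Among its receptors, Unc5b had 6 and 16 copies, Unc5c 3 and 5, and Dcc 0 and 4. Neo1, which encodes neogenin, had the most copies of these receptors, 324 and 262, 1.21-fold lower in Dox- (1.02 to 1.43) and not called. Unc50, taken in by name, had 225 and 279 copies, and Unc5cl had 19 and 38.

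Slit and Robo genes gave no call. Robo1, the receptor with the most copies here, had 260 in Dox+ and 280 in Dox-, a ratio of 1.10 (0.928 to 1.31), and Robo2 had 90 and 107. Slit3 had 84 and 65 copies. Slit2 had 6 copies in Dox+ and 24 in Dox-, 4.10-fold with a wide interval (1.63 to 12.2). Robo4, the Robo gene of endothelium, had 83 and 64 copies.

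**Figure D2:**
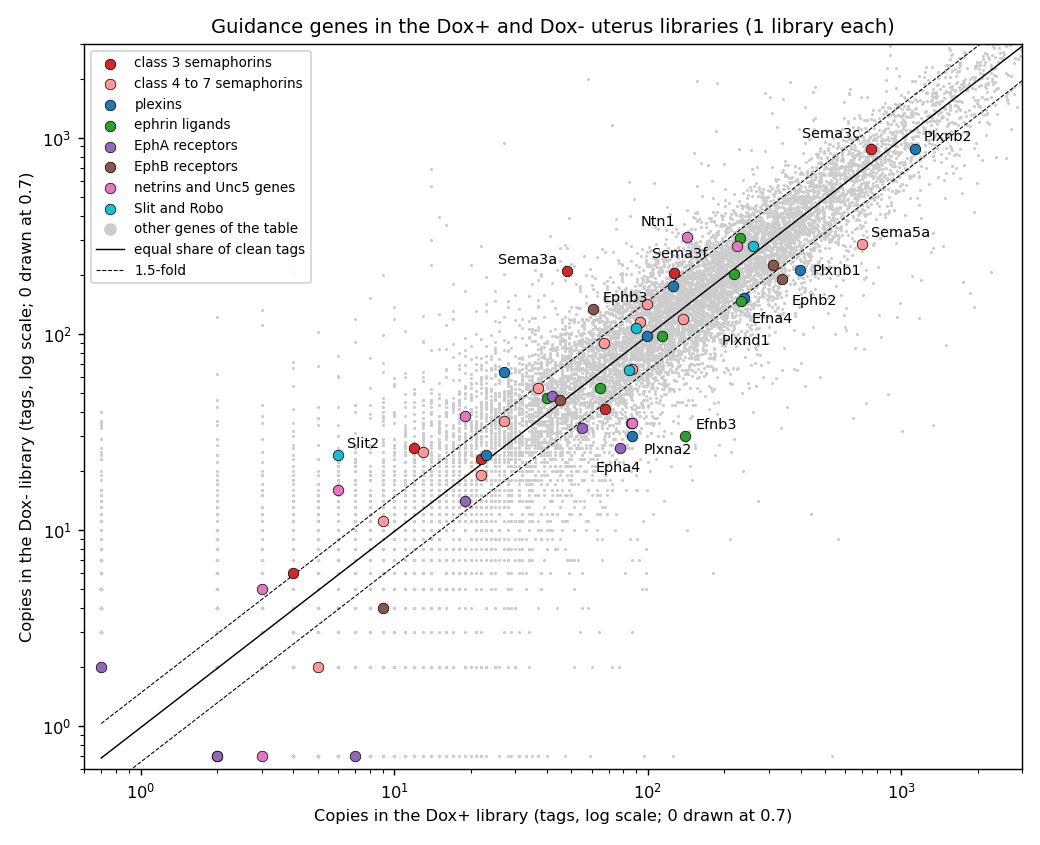
Copies of each gene in the Dox- library against the Dox+ library, on log axes with a count of 0 drawn at 0.7, for the 59 guidance genes by family and all other genes in grey. The solid line marks an equal share of clean tags and the dashed lines 1.5-fold. Sema3a, with 48 and 209 copies, and Efnb3, with 140 and 30, lie well off the line on opposite sides.

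By family, the summed level was lower in Dox- for plexins, ephrin ligands, EphA and EphB receptors and the class 4 to 7 semaphorins, and higher for class 3 semaphorins and for the netrin and Unc5 genes. For the ephrins and the EphA receptors this held with all genes summed. Without Efnb3 the ephrin ratio was 0.965 (0.878 to 1.06) and without Epha4 the EphA ratio was 0.795 (0.603 to 1.04), both intervals including 1. The EphB sum, 765 copies in Dox+ and 595 in Dox-, was not retaken without Ephb2. Ephb2 was the 1 EphB gene called and fell from 339 to 189 copies, which is most of the fall of the sum. Ephb4, not called, fell from 311 to 223 copies, while Ephb3 rose from 61 to 133. The class 4 to 7 sum turned direction without Sema5a, as given above. The netrin and Unc5 sum went from 486 to 684 copies. Most of this difference lay in Ntn1, the 1 gene of this family called, which rose from 143 to 311 copies. The sum was not retaken without Ntn1, and Ntn3 fell from 87 to 35 copies. Unc50 held 46.3% of the copies of this family in Dox+ and 40.8% in Dox-. Without Unc50, but with Ntn1 still in the sum, the summed log2 ratio went from 0.528 to 0.668. The interval of the Slit and Robo genes together also included 1, at a ratio of 1.11 (0.971 to 1.26). The 32 ligand genes summed to 3788 copies in Dox+ and 3695 in Dox-, a ratio of 0.999 (0.955 to 1.05). The 25 receptor genes, without Unc50 and Unc5cl, summed to 3453 and 2756 copies, a ratio of 0.818 (0.777 to 0.860). On the scale of TPM per kb of the longest GENCODE transcript, the highest levels in Dox+ were 29.0 for Plxnb2, 26.6 for Unc50, 24.3 for Efna4 and 23.1 for Sema3c. In Dox- the levels of these genes were 23.1, 33.8, 15.6 and 27.3 TPM per kb. Where a transcript gives tags at a single site, its length does not enter the level, and the library type was not resolved. On the TPM scale without length the order in Dox+ was Plxnb2 at 188, Sema3c at 127, Sema5a at 117 and Plxnb1 at 66.3, so that the order of the genes depends on this choice.

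**Figure D3:**
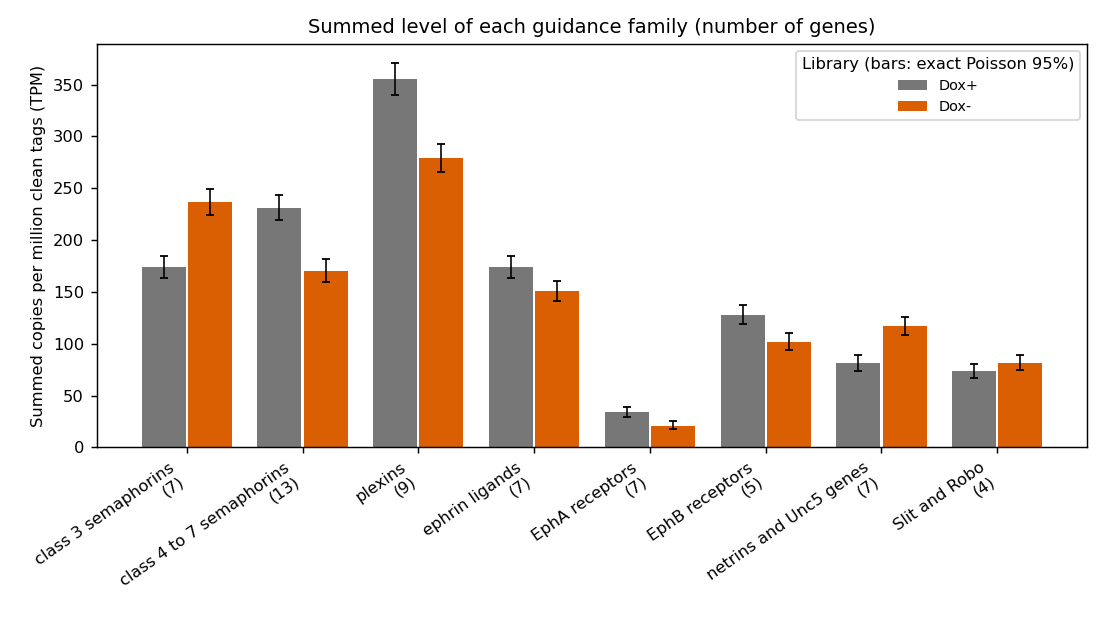
Summed TPM of each guidance family in the Dox+ and Dox- libraries, with the number of genes in parentheses and exact Poisson 95% intervals that cover counting error. Plexins stand at 355 in Dox+ and 279 in Dox-, and class 3 semaphorins at 174 and 237.

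A further 39 guidance genes had fewer than 200 combined copies. Without this threshold 4 of them were called higher (Ephb3, Plxna4, Slit2 and Unc5cl) and 7 lower (Efnb3, Epha4, Epha8, Ntn3, Plxna2, Sema3b and Sema7a). Over the 8131 genes of the table below the threshold these shares were 12.9% and 13.7%, and the members stood at 10.3% and 17.9%. Of the 39 genes, 9 had fewer than 20 combined copies, and 4 had 3 or fewer copies in both libraries. Of those 9 genes only Epha8 was called without the threshold.

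**Figure D4:**
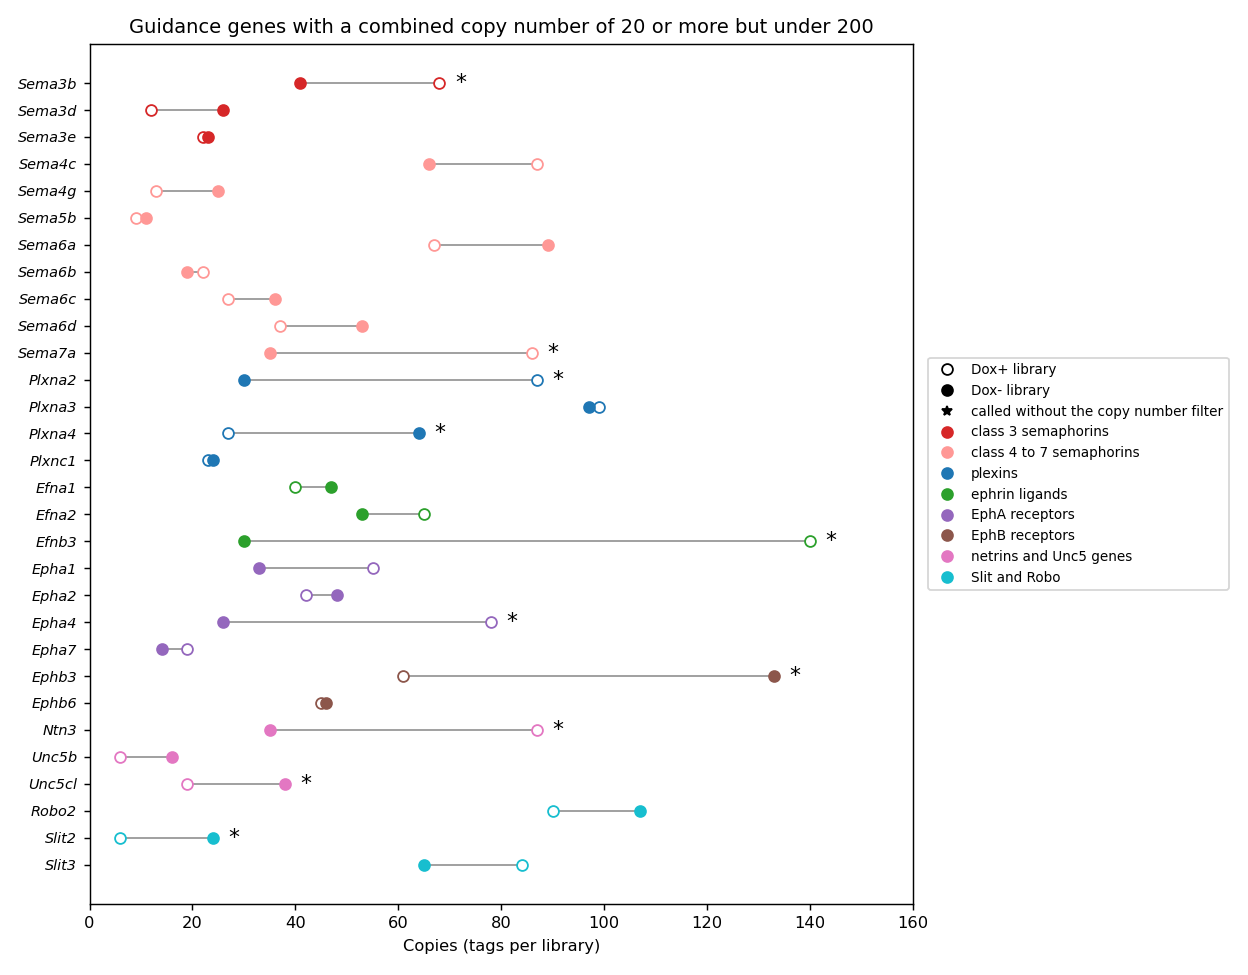
Copies in the Dox+ library (open circles) and the Dox- library (filled circles) of the 30 guidance genes that had 20 or more but under 200 copies over both libraries. Stars mark genes called when no copy number threshold was set. Efnb3 spans 140 to 30 copies and Ephb3 61 to 133.

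Genes that work with the guidance receptors were taken from 3 lists of co-receptors and effectors. Of 33 semaphorin partners in the table, 15 had enough copies, none was called higher, and Dpysl2, a collapsin response mediator, was called lower with 182 and 112 copies. Without the copy number threshold 3 of the 33 were called higher and 4 lower, where 13.9% and 14.2% of all 14678 genes were. Itgb1 had the most copies of this list, 1863 and 1992, followed by Arhgef12 with 681 and 559. Among Eph and ephrin effectors 20 of 33 had enough copies, with 4 called higher and 1 lower. Adam12, a metalloprotease, rose from 339 to 936 copies, Rgs3, which binds ephrin-B proteins, from 269 to 711, Crk, an adaptor, from 181 to 419 and Chn1, a GTPase-activating protein for Rac downstream of EphA4, from 95 to 193. Itsn1 fell from 215 to 103. Sdcbp and Adam12 had the most copies of this list, and Sdcbp, with 1705 and 1533, was not called.

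Of 37 partners of netrins and Slits, 23 had enough copies and 3 were called higher and 1 lower. A pair of kinases that act on the cytoskeleton rose, Rock1 from 111 to 262 copies, 2.42-fold (1.93 to 3.05), and Rock2 from 173 to 325, 1.92-fold (1.59 to 2.33). Flrt2, a ligand that can bind Unc5 receptors, rose from 77 to 170 copies, and Evl, an actin regulator of the Ena/VASP family, fell from 661 to 378. Cfl1, with 5154 and 6146 copies, and Rac1, with 1704 and 2412, had the most copies of this list and were below the fold threshold. Called shares of these lists were read against the 15.2% and 14.7% of all genes given above.

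The labelled tissue was checked with markers. For reference, 15.2% of all genes with enough copies were called higher and 14.7% lower. Without the copy number threshold these shares were 13.9% and 14.2% of all genes. Uterine genes were abundant, Hoxa10 with 3120 and 1060 copies and Hoxa11 with 2573 and 785, and of the 6 listed uterine genes Esr1 and Pgr were called higher and 3 lower, with Wnt4 at 0 and 18 copies. The 14 endothelial markers in the table summed to 653 TPM in Dox+ and 321 in Dox-, with 5 called lower and none higher of 7 with enough copies, and to 320 and 221 without Sox17, which had the most copies. The next was Cdh5 with 446 and 216. Pecam1 had 243 and 253 copies. All 9 smooth muscle markers were lower in Dox- and 5 were called, from 6670 to 4584 TPM in sum, with Tagln and Actg2 first in copies. These sums were lower together with Plxnd1, Plxnb1, Ephb2, Sema5a and Efna4, and their part in those results was not tested. Epithelial markers summed to 1249 and 1702 TPM with 3 called higher and 2 lower of 9, led by Krt19 and Ltf. Stroma markers summed to 8042 and 9888 TPM with 1 called in each direction of 8. Col1a1 led them with 23017 and 33696 copies, before Col3a1 with 18514 and 17098. The median log2 ratio of the 8 stroma markers was -0.039, so the higher sum was not shared across the list. Immune markers summed to 66.7 and 99.4 TPM, a ratio of 1.49 (1.31 to 1.70), led by Csf1r with 186 and 181 copies and Ptprc with 49 and 130. Csf1r was the 1 gene of 9 with enough copies and was not called, and without the copy number threshold Ptprc and Itgam were called higher. Lymphatic markers summed to 38.8 and 22.1 TPM, led by Pdpn and Lyve1 with Prox1 at 4 and 0 copies, and red blood cell markers to 11.0 and 35.6, led by Hba-a1 and Hba-a2, and neither list held a gene with enough copies. Markers of mesothelium and fat summed to 76.5 and 45.3 TPM, led by Fabp4 and Adipoq, of which Adipoq was called lower. Of nerve and Schwann cell markers, Ngfr rose from 626 to 1772 copies, and the other 8 summed to 13.2 and 7.70 TPM, with Uchl1 next in copies, Sox10 at 0 and 4 copies and S100b at 2 and 0.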

How the data were processed

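Uteri of 1 Dox+ and 1 Dox- pool of 3 were profiled by digital gene expression at G2.5. The authors removed adaptor-only, low quality and single-copy tags, aligned clean tags to mouse mRNA of build mm9, and deposited the count of unambiguous tags per gene without normalization, and the TPM as copies per 1000000 clean tags, without a length term and with 0.01 at a count of 0. CASAVA is named in the submitters' processing notes, and the aligner is not given in the sources used here. The labels mention mRNA fragmentation while the paper describes tag profiling, which was not resolved. Their log2 ratio, ratio, P-value and FDR columns were not used.

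Library sizes, 5985925 and 5844314 clean tags, were recovered from copies and TPM, and all 14050 and 13948 TPM values of genes with a tag followed from them within rounding. The two-sided Audic-Claverie test, as in the paper, was run on the counts of all 14678 genes with Benjamini-Hochberg adjustment. With 1 library per condition it takes counting error alone. A count of 0 was set to 3 copies for a bound, and no ratio was given when both libraries had 3 or fewer. Genes named with full values were all called members, the 2 with the most copies per family, called partners and the 2 with the most copies of each partner or marker list. Other members and the genes called without the copy number threshold were named after their values were seen. Members and lists were chosen with earlier results of these data known. Alternatives were other copy number thresholds, library sizes and fold thresholds, a pseudocount of 1, and edgeR's exact test, with the coefficient of variation between pools assumed. Positions were matched to GENCODE on NCBIM37 (mm9) for 58 of 59 genes. Methods were tested on simulated data. Tests were run with scipy 1.17.1 and edgeR 4.0.16 (R 4.3.3), tables were handled with pandas 2.3.3 in Python 3.11.15, and plots were drawn with matplotlib 3.10.9.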

Additional observations from a re-analysis of the deposited data

How the results depend on the processing

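The calls of 3 genes higher and 5 lower held under TMM scaling, median-of-ratios scaling, a pseudocount of 1, the counting interval in place of the FDR (chosen after seeing the data) and without Unc50 and Unc5cl (also added later), and with the counted tags as library size 4 were higher. The 8 calls were all kept without a copy number threshold and from 100 copies, and 3 were kept from 500 copies. Without the threshold 7 of 59 were higher and 12 lower, and from 100 copies 4 of 33 were higher and 11 lower. From 500 copies 0 of 9 were higher and 3 lower, by the same Audic-Claverie test, where the median log2 ratio was -0.32. Over all genes, 2044 of 14678 were higher and 2077 lower without the threshold. From 100 copies these counts were 1444 and 1366 of 8856, and from 500 copies 449 and 456 of 3295. A fold of at least 2 left 2 genes higher, Sema3a and Ntn1, as Sema3f was lost, and 1 gene lower, Sema5a. An absolute log2 ratio above 0.5 gave 5 genes higher, with Sema4d and Plxna1 added. Of all 6547 genes, 302 were higher and 368 lower at the first setting, and 1231 and 1168 at the second. The test with a coefficient of variation of 0.1 assumed between pools left 3 genes lower, as Efna4 and Plxnd1 were lost. With 0.2 assumed, 1 gene was higher, Sema3a, and 0 lower, and with 0.4 assumed 0 and 0, so that the assumed variation between pools removed the most calls. Of all 6547 genes, 864 were higher and 851 lower with 0.1 assumed, 147 and 174 with 0.2, and 16 and 17 with 0.4. The variation between pools cannot be measured with 1 library each. No paired analysis was possible because each condition had 1 library, and for the same reason no replicate could be left out. The summed log2 ratio of the class 4 to 7 semaphorins turned from -0.44 to 0.093 without Sema5a, which holds the most copies. Of 247 values over 19 named genes and their alternatives, 218 stayed on the same side of the call, 27 lost it (with 500 copies, a fold of at least 2 or an assumed variation) and 2 gained it (Epha4 without the threshold and from 100 copies). The median log2 ratio of the guidance genes, 0.029, changed sign to -0.005 with median-of-ratios scaling, -0.198 from 100 copies and -0.083 without Unc50 and Unc5cl.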

Other observations

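Several partners of the guidance receptors with fewer than 200 combined copies differed by more than counting error, and they were picked after their values were seen. Without this threshold 3 of 33 semaphorin, 5 of 33 Eph and ephrin and 6 of 37 netrin and Slit partners were called higher. In the same order 4, 2 and 2 were called lower. Of all 14678 genes 13.9% were called higher and 14.2% lower at this setting. Dscam, a cell adhesion molecule that can bind netrin-1, had 2 copies in Dox+ and 62 in Dox-, a ratio of 31.8 (95% interval 8.43 to 268). Met, the receptor of hepatocyte growth factor, which can pair with plexin-B1, had 21 and 100 copies, 4.88-fold (3.02 to 8.22). Flrt1 had 4 and 30 copies, Farp1, which binds plexin-A4, 35 and 102, and Enah, an actin regulator of the same family as Evl, 58 and 131. In the other direction, Ntng1, a lipid-anchored relative of the netrins, had 30 copies in Dox+ and 4 in Dox-, 7.32-fold lower (2.58 to 28.6). Arhgef15, a guanine nucleotide exchange factor known from endothelial cells and downstream of EphA4, had 97 and 37 copies, 2.56-fold lower (1.74 to 3.85), and Mical1, an oxidase of actin downstream of plexin-A, had 45 and 13.

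The GO column of the table assigns angiogenesis to 4 guidance genes, Ntn1, Ntn3, Plxnd1 and Sema5a. Over all genes with enough copies, 15.2% were called higher and 14.7% lower. Of the 4 genes, 3 had enough copies, and Ntn1 was called higher while Plxnd1 and Sema5a were called lower. The column assigns chemotaxis to 26 guidance genes, of which 9 had enough copies, with 3 called higher and 3 lower. Axon guidance is assigned to 7 of them, of which 2 had enough copies, Efna5, which was not called, and Ephb2, which was called lower.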
